A study of Mus musculus with 19 samples.

Results

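The intestinal brush border is the dense carpet of microvilli on the free surface of absorptive gut cells, and 10 genes that build it or sit in it were followed here in mouse liver: Vil1, Pls1, Mep1a, Slc15a1, Cdhr2, Cdhr5, Cdh17, Krt20, Muc13 and Lgals4. They were taken by gene symbol from a table of 55421 genes, and all 10 were found. The members were chosen by their measured differences between mutant and control livers in these data, so those differences are described and not tested. They were tested only between tumour and tumour-free tissue. Earlier results of these data were known at the choice, and tumour and tumour-free values enter the differences from controls. That test is thus not shown to be independent of the choice.

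The livers came from adult male C57BL/6 mice. Mutants carried a transgene for a dimer of c-Jun and Fra2, which are members of the AP-1 family of transcription factors, and controls were littermates. Doxycycline keeps the transgene off, and its removal at 3 weeks of age turned the transgene on in mutants; controls had the same treatment. The promoter that drives the transgene is not given in the sources used here. At 2 months after removal, 3 mutants and 6 controls were sampled. At 9 months, 3 mutants gave 4 visible tumours and 3 pieces of liver with no visible tumour, and 3 controls gave 1 liver sample each. Mutant 1 gave 2 of the tumours, so its tumours share an animal and were summed for the tests (n = 3 animals). The labels call the tumours mostly transformed hepatocytes and every other sample mostly hepatocytes. The 19 poly(A) RNA-seq libraries held 14.3 to 22.1 M (mega) counts each. The 2-month libraries made up 1 sequencing run and the 9-month libraries another. Time is thus tied to run. The tests compare groups within a run, or differences from controls of the same run. Where levels of the 2 runs are set side by side, they are a description, and time and run cannot be told apart.

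Transcripts of the transgene's own genes were read first, as a check of the labels. Fosl2, which encodes Fra2, averaged 780 ± 127 CPM in 2-month mutants and 12.5 ± 3.70 CPM in controls (SD, n = 3 and 6), and 637 ± 69.0 CPM in tumours, 876 ± 78.4 CPM in tumour-free tissue and 13.9 ± 5.38 CPM in 9-month controls (n = 3 each). Jun averaged 619 ± 77.7 CPM in 2-month mutants and 17.1 ± 5.79 CPM in controls. At 9 months it stood at 334 to 634 CPM in tumours, at 437 to 785 CPM in tumour-free tissue, and at 387, 40.4 and 22.9 CPM in controls, so that the first control lay within the range of the tumours. Jun did not pass at 9 months in tumours or in tumour-free tissue against controls (edgeR adjusted p = 0.268 and 0.204). In every 9-month group animal 1 also held the highest level of 14 of 14 immediate early genes, such as Fos and Egr1, so results at 9 months are also given without those animals where they turn on them. Hepatocyte markers were abundant in all libraries.

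Microvilli are finger-like bundles of actin filaments. Villin, plastin and related proteins cross-link the filaments, and protocadherins at the tips hold neighbouring microvilli together. Digestive enzymes, nutrient carriers and membrane mucins sit in the membrane. Hepatocytes also bear microvilli, on the bile canaliculus and the sinusoidal face, and share some of these genes with gut. Levels are given as CPM, counts per M (mega) counts of the library after TMM scaling.

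The members lie on 9 chromosomes. In GENCODE M21 on GRCm38, Vil1 lies at chr1:74409376-74435559 (+), Pls1 at chr9:95752642-95845311 (-), Cdhr2 at chr13:54701461-54736662 (+), Cdhr5 at chr7:141269083-141276786 (-) and Cdh17 at chr4:11758147-11817895 (+). Mep1a lies at chr17:43474324-43502812 (-), Slc15a1 at chr14:121459621-121505252 (-), Krt20 at chr11:99428403-99438150 (-), Muc13 at chr16:33794037-33819934 (+) and Lgals4 at chr7:28833854-28841708 (+). All are protein coding. Exons of Vil1 overlap Usp37, and exons of Muc13 overlap Gm15657, in both cases on the opposite strand. The libraries keep strand, but whether the counting used it is not given in the sources used here, so reads of these pairs may have been mixed.

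Because the transgene encodes an AP-1 dimer, the promoter windows of the members were searched for the AP-1 letters TGACTCA, which read TGAGTCA on the other strand. RefSeq windows on GRCm38.p6, from 250 bases before to 50 after a gene start, were matched for 9 of the 10 members (10 windows, Muc13 having 2), with Cdh17 unmatched. Both Muc13 windows hold the letters, at positions -61 and -179 from their own start, and no window of the other 8 members does. Of all 32851 windows in that table, 5.2% hold them. A match is a description of letters, not of binding. The Muc13 windows are shown with the AP-1 letters in capitals, and the Vil1 window, with no match, is shown beside them because Vil1 and Muc13 were the most abundant members in 9-month mutant tissue.
Muc13 upstream start, chr16:33793787-33794086 (+): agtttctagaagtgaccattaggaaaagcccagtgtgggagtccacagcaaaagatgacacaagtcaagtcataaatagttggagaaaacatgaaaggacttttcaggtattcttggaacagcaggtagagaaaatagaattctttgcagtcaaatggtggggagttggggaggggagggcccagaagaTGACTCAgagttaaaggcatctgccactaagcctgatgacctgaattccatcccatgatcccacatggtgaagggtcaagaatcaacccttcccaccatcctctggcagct
Muc13 downstream start, chr16:33794239-33794538 (+): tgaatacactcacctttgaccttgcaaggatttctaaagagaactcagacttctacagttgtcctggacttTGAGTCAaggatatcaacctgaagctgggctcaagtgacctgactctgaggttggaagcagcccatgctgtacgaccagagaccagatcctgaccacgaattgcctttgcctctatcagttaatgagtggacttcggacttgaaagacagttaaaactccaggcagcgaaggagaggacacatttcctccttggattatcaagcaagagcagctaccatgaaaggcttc
Vil1, chr1:74409134-74409433 (+): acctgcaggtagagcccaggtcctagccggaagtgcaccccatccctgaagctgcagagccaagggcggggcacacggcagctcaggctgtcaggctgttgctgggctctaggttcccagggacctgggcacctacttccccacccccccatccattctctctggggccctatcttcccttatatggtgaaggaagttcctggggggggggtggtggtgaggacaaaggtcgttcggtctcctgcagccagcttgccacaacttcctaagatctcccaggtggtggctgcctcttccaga

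Other letters were searched in the same 10 windows on both strands. TTTATG, a core bound by CDX proteins, was in windows of Cdhr5, Muc13 and Mep1a, against 11.9% of all windows. GTTAAT, one side of the HNF1 site, was in windows of Cdhr2 and Muc13, against 7.1%. TATAAA was in that of Krt20, against 13.6%. CACGTG, the E-box bound by Myc, was in 0 of 10, against 7.15%.

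Most of these genes were almost silent in control livers and abundant in mutant livers at both times. At 2 months, 8 of the 10 members were higher in every mutant than in every control, Lgals4 was lower in every mutant, and Cdhr5 overlapped. Of all genes tested in that contrast, 22.3% were called higher and 20.4% lower, 42.7% in all, at an adjusted p under 0.05 (edgeR quasi-likelihood test with Benjamini-Hochberg adjustment). In tumour-free tissue at 9 months, 9 members lay above every control and Lgals4 below every control, where 18.1% of all genes tested were called higher and 16.8% lower, 34.9% in all. In tumours, 8 members lay above every control, Lgals4 below and Cdhr5 overlapped, where 13.8% were called higher and 11.3% lower, 25.1% in all. Nothing is read from these counts, since the choice of members rests on such differences. The shares are of genes called, and the share of all genes without overlap was not counted. In whole tissue, more cells of a type and more RNA per cell cannot be told apart.

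**Figure D1:**
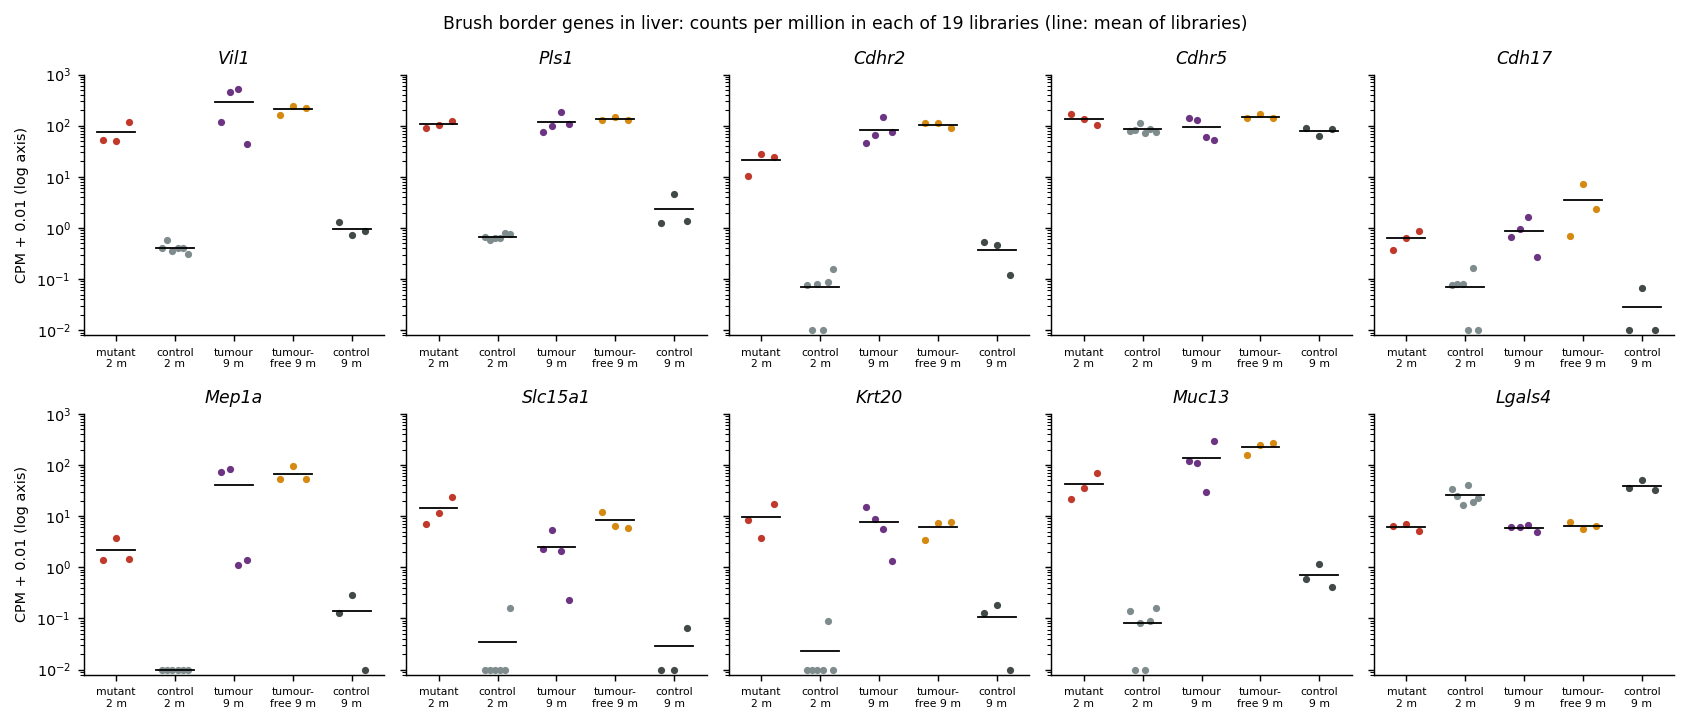
Level of each member (CPM + 0.01, log axis) in each of 19 libraries, with 1 point per library and a line at the mean of the libraries. Mutant groups stand left of their controls, and 9 members sit higher in mutants, with Cdhr5 overlapping its controls at 2 months and in tumours, while Lgals4 sits lower, near 6 CPM in mutants against 16.7 to 51.2 CPM in controls.

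Vil1 encodes villin, which bundles and severs actin in the microvillus core. It stood at 53.7, 50.9 and 117 CPM in 2-month mutants, against 0.300 to 0.564 CPM in 2-month controls (median 0.390). At 9 months it stood at 117 and 451 CPM in the tumours of mutant 1, 530 CPM in the tumour of mutant 2 and 43.7 CPM in that of mutant 3, at 160, 244 and 226 CPM in tumour-free tissue, and at 1.27, 0.735 and 0.846 CPM in controls. No mutant library came near a control. The mean in mutants was 186-fold that in controls at 2 months and 221-fold in tumour-free tissue at 9 months.

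Pls1 encodes plastin 1, also called I-plastin, an actin bundler that cross-links filaments beside villin. It stood at 89.6, 103 and 125 CPM in 2-month mutants, against 0.564 to 0.790 CPM in 2-month controls. In the older mice Pls1 stood at 74.1 and 97.2 CPM in the tumours of mutant 1 and 185 and 106 CPM in those of mutants 2 and 3, at 127, 150 and 127 CPM in tumour-free tissue, and at 1.215, 4.58 and 1.35 CPM in controls. The second control was the highest of the 3, and still far below every mutant library. Across mutant groups Pls1 was among the steadiest members, with means of 106 ± 17.7 CPM at 2 months and 135 ± 13.4 CPM in tumour-free tissue (SD, n = 3 each).

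Cdhr2 and Cdhr5 encode protocadherins whose outer domains join across neighbouring microvillus tips. Cdhr2 stood at 10.5, 27.7 and 24.7 CPM in 2-month mutants, against 0.0608 ± 0.0562 CPM in 2-month controls (SD, n = 6). The 9-month levels were 45.3, 65.0, 148 and 76.1 CPM in the tumours, 112, 113 and 89.1 CPM in tumour-free tissue, and 0.521, 0.452 and 0.113 CPM in controls. Every mutant library lay far above every control, 344-fold on the means at 2 months. Its partner Cdhr5 was already abundant in control liver. It stood at 171, 137 and 102 CPM in 2-month mutants, against 72.0 to 115 CPM in 2-month controls (median 79.6), so that the third mutant lay below the third control. At 9 months Cdhr5 stood at 139, 127, 60.4 and 53.4 CPM in the tumours, at 140, 169 and 141 CPM in tumour-free tissue, and at 90.5, 63.1 and 84.8 CPM in controls. Tumour-free tissue lay above the controls, 1.89-fold on the means, and the tumours straddled them. The partners thus differed in how far mutants stood from controls.

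Cdh17 encodes LI-cadherin, an adhesion molecule of the lateral gut cell membrane. It was the least abundant member in mutants, at 0.354, 0.630 and 0.879 CPM at 2 months (35 counts in all), against 5 counts over 6 controls. Later it stood at 0.653, 0.950, 1.61 and 0.263 CPM in the tumours, at 0.702, 7.27 and 2.38 CPM in tumour-free tissue, and at 1 count in the controls. The tumour-free tissue of mutant 2 was the highest library, and tumour-free tissue had 191 times the controls' level with a 95% counting interval of 33.9 to 7561.

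Mep1a encodes the alpha subunit of meprin, a secreted and membrane-bound metalloprotease of the gut and kidney brush border. It stood at 1.36, 3.65 and 1.43 CPM in 2-month mutants, against 0 counts in all 6 controls of that age, at least 56.6-fold higher by a floor of 3 counts over the control group. In the 9-month mice Mep1a stood at 73.0 and 85.0 CPM in the tumours of mutant 1 but at 1.11 and 1.36 CPM in the tumours of mutants 2 and 3, at 53.3, 94.6 and 54.2 CPM in tumour-free tissue, and at 0.116, 0.283 and 0 CPM in controls. Every mutant library was above every control. The tumours formed a high pair from mutant 1, near its tumour-free tissue, and a low pair from the other mice, near the 2-month mutants.

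Slc15a1 encodes the proton-coupled carrier that takes up di- and tripeptides in the small intestine. It stood at 7.14, 11.3 and 23.8 CPM in 2-month mutants, against 0 counts in 5 controls and 2 counts (0.150 CPM) in the sixth. The ratio was 619 with a counting interval of 171 to 5120. In the older mice it stood at 2.22, 5.47, 2.07 and 0.219 CPM in the tumours, at 12.2, 6.54 and 5.91 CPM in tumour-free tissue, and at 1 count in the controls. All 4 tumours lay below all 3 tumour-free pieces.

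Krt20, the keratin of mature gut surface cells, stood at 8.27, 3.72 and 17.0 CPM in 2-month mutants, against 1 count over 6 controls, a ratio of 859 with a counting interval of 154 to 33980. At 9 months it stood at 15.4, 8.67, 5.72 and 1.32 CPM in the tumours, at 3.34, 7.31 and 7.76 CPM in tumour-free tissue, and at 0.116, 0.170 and 0 CPM in controls. Mutant libraries were above controls throughout, with the tumour of mutant 3 closest to them.

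Muc13 encodes a membrane mucin of the gut surface. It stood at 21.8, 34.7 and 68.9 CPM in 2-month mutants, against 0.0717 ± 0.0632 CPM in 2-month controls (SD, n = 6). At 9 months it stood at 120, 108, 29.1 and 296 CPM in the tumours, at 154, 251 and 274 CPM in tumour-free tissue, and at 0.579, 1.13 and 0.395 CPM in controls. The groups were far apart, 323-fold on the means in tumour-free tissue.

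Lgals4 encodes a galectin of gut epithelium that binds sugars on membrane proteins and lipids. It moved the other way from the rest, at 6.49, 6.93 and 5.18 CPM in 2-month mutants, against 16.7 to 40.3 CPM in 2-month controls (median 23.8). The 9-month libraries held 6.18, 6.10, 6.56 and 4.95 CPM in the tumours, 7.72, 5.49 and 6.26 CPM in tumour-free tissue, and 35.3, 51.2 and 32.1 CPM in controls. All 10 mutant libraries lay between 4.95 and 7.72 CPM, below all 9 control libraries. The means in mutants were 0.236 times the controls' at 2 months and 0.164 times in tumour-free tissue.

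Between genes, levels were compared as mean CPM per kilobase of exon. In tumours Vil1 led at 81.2, followed by Muc13 at 48.1, Pls1 at 32.3 and Cdhr5 at 29.9. In tumour-free tissue Muc13 led at 74.5, followed by Vil1 at 59.1, Cdhr5 at 54.8 and Pls1 at 34.7, and in 2-month mutants Cdhr5 led at 49.8, followed by Pls1 at 27.2, Vil1 at 20.8 and Muc13 at 13.8. Mep1a was sixth of 10 at 19.5 in 9-month tumour-free tissue and ninth at 0.622 in 2-month mutants. Neighbours in these orders lay within the spread of the animals in most cases: Vil1 at 210 ± 44.3 CPM and Muc13 at 226 ± 63.4 CPM in tumour-free tissue cannot be ordered (SD, n = 3 each). In controls only Cdhr5, at 30.9 at 2 months and 29.0 at 9 months, and Lgals4, at 11.4 and 17.1, exceeded 1 CPM per kilobase.

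The low control level was also set against the mutant level of the same sequencing run. For Vil1, Cdhr2, Muc13 and Slc15a1 the mean in controls was 0.171% to 0.539% of the mean in mutants of that run. These members were grouped after their values were seen, so the band is a description. Within it the share of Muc13 was 0.171% at 2 months and 0.376% at 9 months. That of Slc15a1 was 0.177% and 0.365%, on 2 and 1 control counts. Muc13, for example, had 186 CPM in 9-month mutant tissue and 0.701 CPM in controls of that run, and 41.8 CPM in 2-month mutants and 0.0717 CPM in their controls. The other near-silent members lay outside this band at 1 time or both. Pls1 stood at 0.633% and 1.83% at 2 and 9 months, Krt20 at 0.136% and 1.53%, Cdh17 at 9.77% and 0.867%, and Mep1a at 0 and 0.281%. Whether reads passed between libraries of a run was not tested.

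The mutants differed among themselves more in these genes than in most. Between the highest and lowest of the 4 tumours the members spanned a median of 2.78 log2 units, against 0.76 over the 15270 genes that passed the filter. In 2-month mutants the median span was 1.28 against 0.44, and in tumour-free tissue 0.72 against 0.43. Lgals4 was the steadiest member in the tumours, at a span of 0.40, and Mep1a the widest at 6.13. At 2 months mutant 3 had the highest level of 6 members, namely Vil1, Pls1, Cdh17, Slc15a1, Krt20 and Muc13. Its bile duct marker sum was also the highest of the 2-month mutants, at 815 CPM against 370 and 334 CPM in the other mutants. So were its macrophage marker sum, at 1039 CPM against 619 and 739 CPM, and its myofibroblast marker sum, at 758 CPM against 492 and 407 CPM. The part of these cells in those levels was not tested.

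The next question was whether tumours and the tumour-free liver of the same mice differed in these genes. No member passed the test (edgeR quasi-likelihood test, adjusted p under 0.05, 10 of 10 members tested), where 0.0137% of all genes, 2 of 14566, were called. That test did not pair the tissues by animal, and the adjusted p values of members below come from it. With the animal as a block, 1 gene was called. Only Cdhr5 had an unadjusted p under 0.05, and DESeq2 called 0 members. Members had a median log2 difference of -0.41, against 0.02 over all genes tested. With 3 animals a group and wide spread between tumours, a missed threshold does not show equal levels.

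Slc15a1 and Cdhr5 were the members whose tumours did not overlap tumour-free tissue, Cdhr5 only by 138.5 against 140.1 CPM. The share of all genes without overlap was not counted, so nothing is read from there being 2 such members. Slc15a1 averaged 2.07 ± 1.85 CPM in tumours and 8.23 ± 3.49 CPM in tumour-free tissue (SD, n = 3 each), a log2 difference of -1.97 ± 0.85 (SE; edgeR adjusted p = 0.521). It was lower in 4 of 4 tumours than in the same mouse's tumour-free liver, at 0.181 and 0.446 times in mutant 1, 0.317 times in mutant 2 and 0.0371 times in mutant 3. Cdhr5 averaged 82.0 ± 43.6 CPM in tumours and 150 ± 16.6 CPM in tumour-free tissue, a log2 difference of -0.87 ± 0.36 (SE; edgeR adjusted p = 0.493). The tumours were uneven: those of mutant 1 stood at 0.989 and 0.903 times their own tumour-free tissue, and those of mutants 2 and 3 at 0.357 and 0.380 times.

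Mep1a split the tumours by mouse. Relative to tumour-free liver of the same animal it stood at 1.37 and 1.60 times in the tumours of mutant 1, but at 0.0118 times in that of mutant 2 and 0.0251 times in that of mutant 3. Over all animals the log2 difference was -1.29 ± 1.50 (SE; edgeR adjusted p = 0.850). Without the tumours of mutant 1 it was -5.77 (edgeR adjusted p = 0.0175). With the 9-month animals numbered 1 left out of both groups it was -5.91 (edgeR adjusted p = 0.119). The first was 1 of 6 fits that each left out 1 replicate, and it left out the tumours that stood apart. Its p thus does not test the split. The ratios of Cdh17, on low counts, divided in the same way. They were 0.929 and 1.35 in mutant 1, 0.222 in mutant 2 and 0.111 in mutant 3. Its tumour levels did not, at 0.653 and 0.950 CPM in mutant 1, 1.61 CPM in mutant 2 and 0.263 CPM in mutant 3. Its tumour-free levels were 0.702, 7.27 and 2.38 CPM in mutants 1, 2 and 3.

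Other members varied between tumours without a common direction. Vil1 stood at 0.731 and 2.82 times its tumour-free level in the tumours of mutant 1, so that tumours of 1 animal fell on either side. It stood at 2.17 times in the tumour of mutant 2 and 0.194 times in that of mutant 3. Krt20 had log2 ratios of 2.20 and 1.38 in mutant 1, -0.35 in mutant 2 and -2.56 in mutant 3. Muc13 was at 0.116 times in the tumour of mutant 2 and between 0.697 and 1.08 times in the other 3 tumours. Pls1, Cdhr2 and Lgals4 stayed between 0.404 and 1.31 times in all 4 tumours. The tumour of mutant 3 was below its tumour-free liver in 9 of 10 members.

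**Figure D2:**
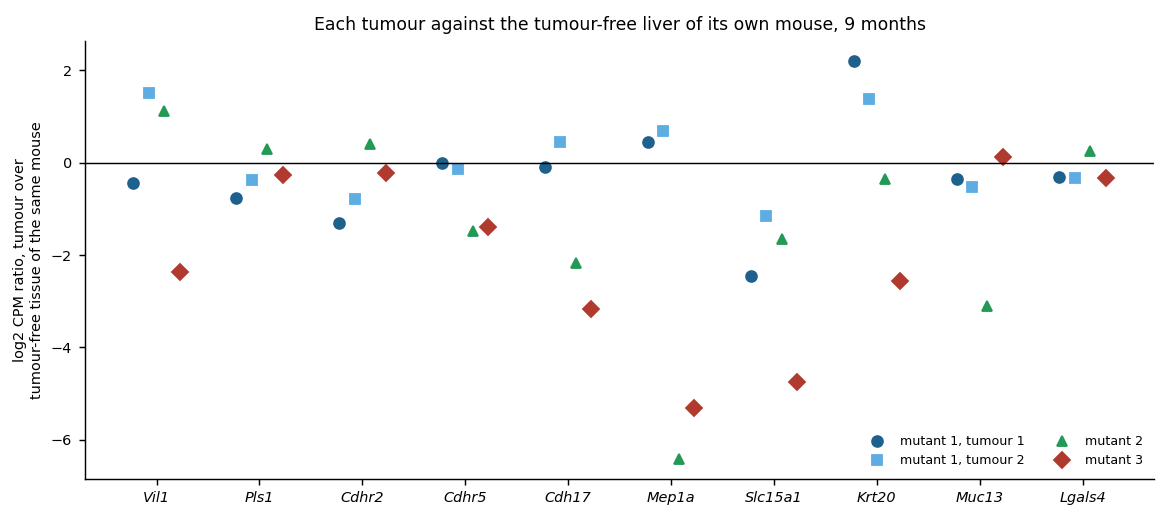
Log2 ratio of CPM in each of 4 tumours to the tumour-free liver of the same mouse, per member; circles and squares are the 2 tumours of mutant 1, triangles mutant 2 and diamonds mutant 3. Mep1a lies above 0 in both tumours of mutant 1 and at -6.41 and -5.32 in the other tumours, while Slc15a1 lies below 0 in all 4.

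The tumours with high Mep1a also stood apart in other genes. The tumours of mutant 1 had bile duct marker sums of 2561 and 3275 CPM, against 624 CPM in that of mutant 2, 298 CPM in that of mutant 3 and 272 to 456 CPM in tumour-free tissue. Most of that sum was Spp1, which encodes osteopontin, at 2352 and 2994 CPM. Krt7 and Krt19, keratins of bile duct cells, did not pass in tumours against tumour-free tissue, with log2 differences of -0.40 (adjusted p = 0.904) and -0.81 (adjusted p = 0.832, both edgeR). That test covers the tumours of all 3 animals, so it cannot say how those of mutant 1 alone stood. Between the animals, Krt19 in tumours ran from 0.0384 to 1.39 CPM. Mutant 1 is also an animal with high early genes. With the 9-month animals numbered 1 left out, 0 members were called in tumours against tumour-free tissue. The part of bile duct cells and of early gene induction in the Mep1a split was not tested.

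The mutant effect at 9 months, in tumour-free tissue, was then compared with that at 2 months by an interaction term. This term is built from the differences that the members were chosen by, so their values in it are a description, with no test. Over all genes tested, 1.52% were called, 223 of 14707, 0.462% with a larger and 1.05% with a smaller value at 9 months (edgeR). The mutant effect on Pls1 was smaller at 9 months, with a log2 difference of -1.48 ± 0.46 (SE). Pls1 was 57-fold higher in tumour-free tissue than in controls at 9 months, and 158-fold higher in mutants than in controls at 2 months, while its mutant levels were similar. The difference rests on the second 9-month control: it was -0.59 without that library, and -1.80 without the first. Slc15a1 at -0.52 ± 2.92, Cdh17 at 3.82 ± 1.84 and Krt20 at -3.07 ± 1.57 had the widest standard errors, on few control counts. Mep1a had no control count at 2 months, so its value of 0.70 depends on the prior count.

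**Figure D3:**
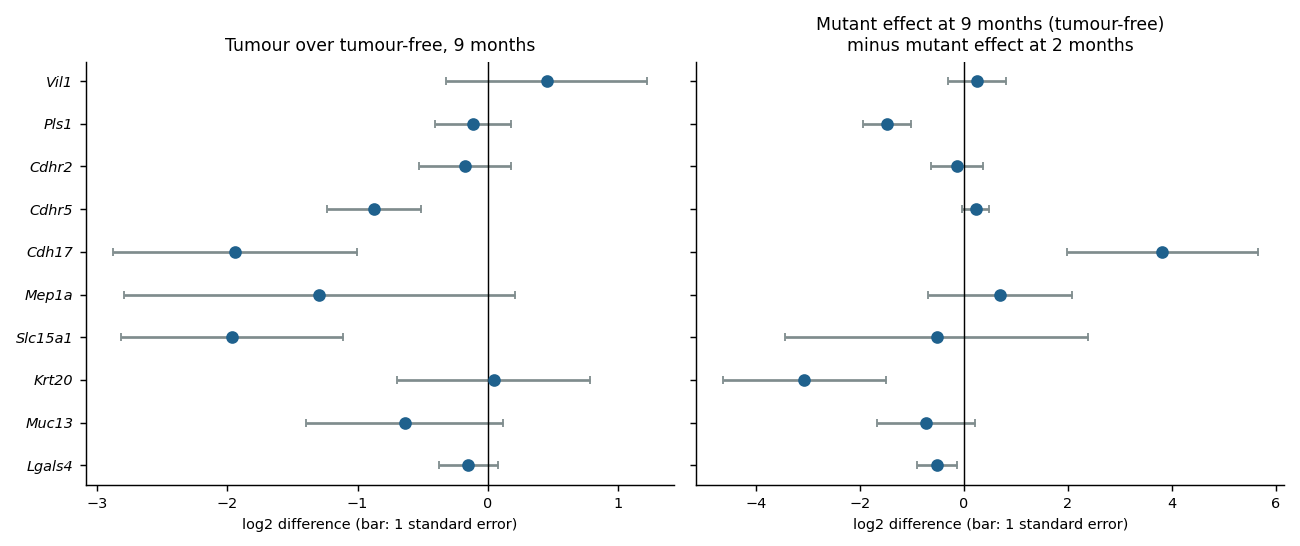
Fitted log2 differences of the 10 members, with bars of 1 SE: tumour over tumour-free tissue on the left, and the mutant effect at 9 months minus that at 2 months on the right. On the left none passed an adjusted p under 0.05, the lowest being 0.493 (Cdhr5); the right side is a description, and its longest bar is that of Slc15a1, at -0.52 ± 2.92.

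Whether other parts of the brush border moved with these genes was asked of 75 more genes, in lists for the microvillus core, membrane enzymes and carriers, written from textbook knowledge with earlier results of these data known. At 2 months 27 of 55 tested rose in mutants and 10 fell, and in tumour-free tissue 27 of 57 rose and 10 fell, against the shares of all genes given above. In tumours 19 of 56 rose and 4 fell, where 13.8% of all genes were called higher and 11.3% lower. Leaving out 1 animal gave 8 to 22 higher, fewest without the third control, and 1 to 5 lower, fewest without the first control; without the animals numbered 1 there were 12 higher and 2 lower. With library size alone as the scale, higher and lower calls numbered 34 and 9 at 2 months, 34 and 8 in tumour-free tissue, and 29 and 2 in tumours. That scale moved the median of all genes up by 0.29 to 0.47 log2 units and the calls over all genes to 5445 higher and 1562 lower at 2 months. Both mutant contrasts at 9 months share the same 3 controls.

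More microvillus core genes rose than fell. At 2 months 16 of 28 tested rose and 3 fell, where 22.3% of all genes were called higher and 20.4% lower. In tumour-free tissue 16 of 29 rose and 4 fell, where 18.1% of all genes were higher and 16.8% lower. The median log2 difference was 0.64 at 2 months and 0.68 in tumour-free tissue, against 0.01 and -0.01 over all genes tested. Myo7b, the myosin that anchors the tip protocadherins, averaged 3.80 ± 1.32 CPM in 2-month mutants and 0.0484 ± 0.0582 CPM in controls (SD, n = 3 and 6; edgeR adjusted p = 3.58e-06), and 19.6 ± 6.54 CPM in tumour-free tissue and 0.436 ± 0.376 CPM in 9-month controls (n = 3 each; adjusted p = 0.000143). Tmigd1, an adhesion protein of the gut and kidney epithelium, averaged 3.67 ± 0.315 CPM in 2-month mutants and had 1 count over 6 controls (adjusted p = 4.03e-07). Ezr, which encodes ezrin, the link from actin to the membrane, rose by 2.07 and 2.98 on the log2 scale at 2 and 9 months (edgeR adjusted p = 3.15e-06 and 8.51e-05). Stx3, a syntaxin of apical delivery, rose by 3.09 and 3.35 (4.82e-07 and 3.52e-05).

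By the interaction term, the mutant effect on Espn, Vill and Eps8l2 was larger at 9 months. Espn, which encodes the actin bundler espin, averaged 2.68 ± 0.209 CPM in 2-month mutants and 1.02 ± 0.480 CPM in 2-month controls, and 21.3 ± 9.10 CPM in tumour-free tissue and 1.27 ± 0.174 CPM in 9-month controls. The effect grew by 2.65 ± 0.49 on the log2 scale (SE; edgeR adjusted p = 0.0123). That on Vill, a villin-like gene, grew by 2.21 ± 0.40 (0.0101). For Eps8l2, an actin regulator, the effect grew by 1.36 ± 0.25 (0.0115), with similar levels in mutants of both times and lower levels in the older controls. It averaged 225 ± 31.7 CPM in 2-month mutants and 152 ± 30.9 CPM in 2-month controls, and 240 ± 29.6 CPM in tumour-free tissue and 62.8 ± 7.59 CPM in 9-month controls, which were also the second run. In 1 fit over all groups Eps8l2 did not pass. Pls3, Pdzk1 and Slc9a3r2, named after their values were seen, fell at both times. Pls3 is the plastin of most solid tissues, and its log2 differences were -1.37 at 2 months and -1.84 in tumour-free tissue (7.51e-06 and 0.000588), opposite in sign to those of its relative Pls1. Slc9a3r2 lost its call at both times with library size alone. Leaving out mutant 1 or 2 at 2 months, or any of 4 of the 6 animals at 9 months, also ended it. In all, its call was lost in 4 of 15 alternatives at 2 months and 5 of 13 in tumour-free tissue. Pdzk1, a scaffold for membrane carriers, had differences of -0.81 and -1.16 (0.00129 and 0.000446).

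Among brush border enzymes, 2 of 10 tested rose and 4 fell at 2 months, where 22.3% of all genes were called higher and 20.4% lower. In tumour-free tissue 3 of 11 rose and 4 fell, where 18.1% of all genes were higher and 16.8% lower. The summed level of the 19 enzymes ran from 525 to 583 CPM in 2-month mutants and from 666 to 859 CPM in 2-month controls, so that every mutant lay below every control. At 9 months it ran from 474 to 642 CPM in tumour-free tissue and from 636 to 948 CPM in controls, which overlap. Treh, which encodes trehalase, averaged 38.2 ± 6.02 CPM in 2-month mutants and 1.13 ± 0.548 CPM in controls (SD, n = 3 and 6; edgeR adjusted p = 9.71e-08). At 9 months it averaged 95.4 ± 20.9 CPM in tumour-free tissue and 13.4 ± 8.00 CPM in controls (adjusted p = 0.00166), and the change of its mutant effect with time was -2.25 (adjusted p = 0.0376). 4 peptidases and glycosidases that liver also makes fell. Anpep, aminopeptidase N, had log2 differences of -1.20 and -1.53 at 2 and 9 months. Those of Mme, neprilysin, were -1.66 and -2.49, those of Enpep -1.43 and -1.94, and those of Mgam, maltase-glucoamylase, -0.79 and -0.90, with edgeR adjusted p of at most 0.00372 at either time. Ggt1, a peptidase that handles glutathione, did not pass the filter at 2 months and averaged 5.50 ± 5.36 CPM in tumour-free tissue and 0.0950 ± 0.0335 CPM in 9-month controls (adjusted p = 0.0022).

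Among carriers, 9 of 17 tested rose and 3 fell at 2 months, and 8 of 17 rose and 2 fell in tumour-free tissue, against 22.3% higher and 20.4% lower, and 18.1% higher and 16.8% lower, over all genes. Slc6a19, the main sodium-coupled carrier of neutral amino acids in gut and kidney, averaged 8.82 ± 4.46 CPM in 2-month mutants and 0.0368 ± 0.0623 CPM in controls (edgeR adjusted p = 2.9e-06), and 44.1 ± 10.4 CPM in tumour-free tissue and 0.152 ± 0.0869 CPM in 9-month controls (5.46e-06). Slc34a2, a sodium-phosphate carrier, averaged 43.6 ± 25.9 CPM in 2-month mutants and 1.25 ± 0.738 CPM in controls (8.18e-06). Slc1a1, a glutamate carrier, averaged 20.0 ± 6.11 CPM in tumour-free tissue and 0.152 ± 0.117 CPM in 9-month controls (2.44e-05). Slc10a2, the ileal bile acid carrier that bile duct cells also make, passed at 2 months, at 154 ± 68.8 CPM in mutants and 22.5 ± 4.23 CPM in controls (8.28e-06). It did not pass in tumour-free tissue, at 88.2 ± 20.7 CPM against 68.7 ± 47.5 CPM in controls (0.58), and the change of its effect with time was -2.41 (0.0402). That of Abcb1a, a drug efflux pump, was -2.43 (0.00896). The calls of Treh and Slc10a2 on time were lost with library size alone, without the filter, in 1 fit over all groups, and on leaving out 12 and 11 of the 15 animals in turn. Each of those calls was lost in 15 of 21 alternatives in all. Abcb1a lost its call in the single fit. Slc3a1, the heavy chain of the cystine carrier, fell at both times, with differences of -2.66 at 2 months and -2.20 in tumour-free tissue (1.3e-05 and 0.000572).

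**Figure D4:**
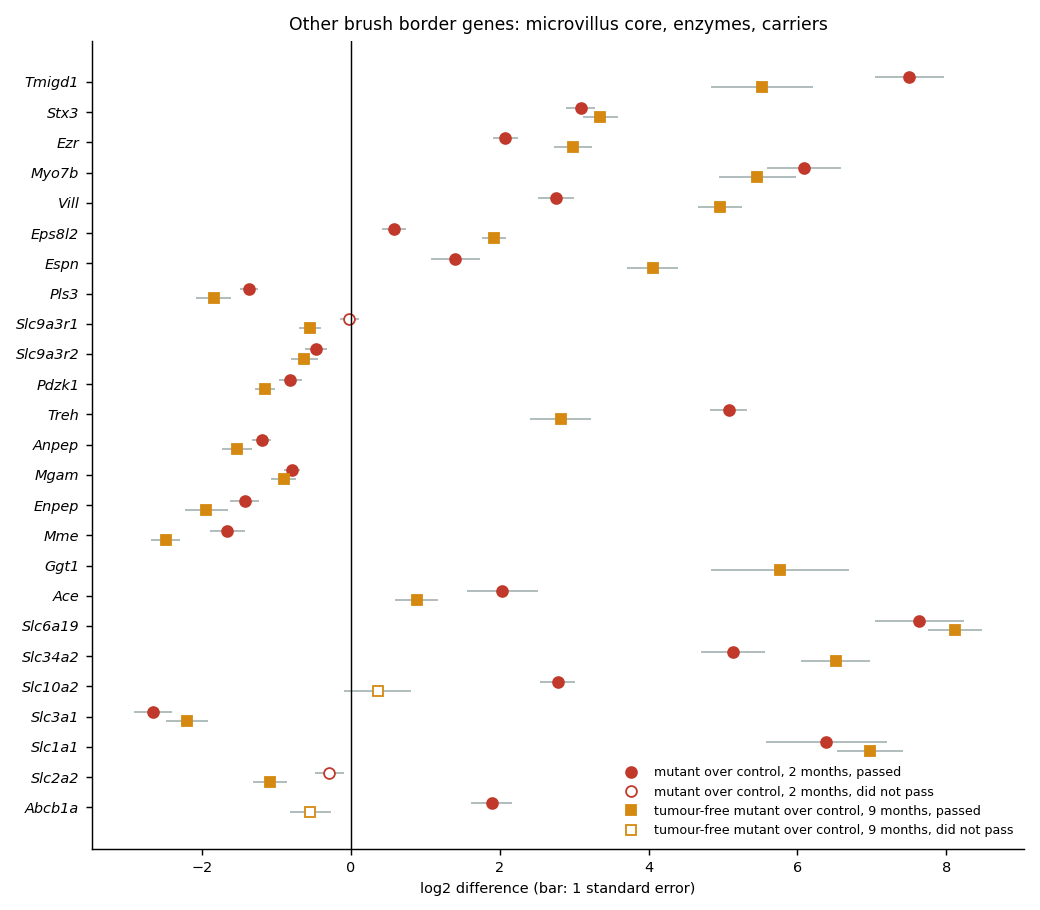
Log2 differences of other brush border genes, with bars of 1 SE: circles for mutants over controls at 2 months and squares for tumour-free tissue over controls at 9 months, filled where the adjusted p was under 0.05. Microvillus genes are at the top, enzymes in the middle and carriers at the bottom; Slc6a19 lies above 7 at both times, Mme lies at -1.66 and -2.49, and Ggt1 has a square only.

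In tumours against tumour-free tissue, 0 of 57 of these genes were called by edgeR, and DESeq2 called 3 higher and 3 lower. In edgeR 13 had an unadjusted p under 0.05 (6 higher and 7 lower). The share of all genes under that unadjusted threshold is not given here, so nothing is read from the 13. Slc6a19 averaged 9.31 ± 8.06 CPM in tumours and 44.1 ± 10.4 CPM in tumour-free tissue, a log2 difference of -2.23 ± 0.61 (SE, n = 3 each; edgeR adjusted p = 0.33).

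Relatives of the members were read in the same way. Among the simple epithelial keratins, Krt23 rose at 2 months by 3.28 on the log2 scale (edgeR adjusted p = 5.18e-05) and in tumour-free tissue by 1.75 (0.0125, a call lost without the third control), while Krt8 and Krt18, the usual pair of hepatocytes, rose by 0.89 and 0.73 at 2 months (0.000611 and 0.00454). Of the 10 other mucins only Muc1 was abundant enough to test, and it did not pass at 2 months, with a difference of 0.92 (0.16). Lgals3, another galectin, rose against the fall of Lgals4, by 4.22 at 2 months and 4.77 in tumour-free tissue (7.23e-08 and 0.000502). Lgals1 fell, with differences of -0.78 and -2.53 (0.012 and 0.00619). The first of these calls was lost in 3 of 15 alternatives, library size alone among them. The second was lost in 1 of 13, that without the filter. Cdh1, E-cadherin, averaged 249 ± 50.3 CPM in 2-month mutants and 60.0 ± 16.6 CPM in controls, and 216 ± 56.2 CPM in tumour-free tissue and 5.41 ± 0.671 CPM in 9-month controls. Its effect grew by 3.26 ± 0.37 (SE; adjusted p = 0.000685), with similar mutant levels at both times and lower levels in the older controls, which were also the second run.

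Transcription factors that set gut identity were asked next. Cdx1 and Cdx2, the homeobox genes of intestinal epithelium, had 1 count each, both in the first 2-month mutant, and 0 counts in the other 18 libraries. Isx, another intestinal homeobox gene, had 0 counts in all 19. At 2 months 3 of 17 tested factors of this list rose and 1 fell, and in tumour-free tissue 5 of 19 passed, all higher. Over all genes, 22.3% were called higher at 2 months and 18.1% in tumour-free tissue. Gata6, a GATA factor of gut and bile duct, averaged 28.7 ± 5.16 CPM in 2-month mutants and 7.82 ± 1.75 CPM in controls (edgeR adjusted p = 1.06e-05), while Gata4 fell, with a log2 difference of -0.59 (0.000863). Elf3, an epithelial ETS factor, rose by 2.18 and 3.29 at 2 and 9 months (0.000764 and 0.00119). Vdr, the vitamin D receptor, averaged 5.29 ± 1.60 CPM in tumour-free tissue and 0.0950 ± 0.0335 CPM in 9-month controls (4.72e-05). Hnf4a, which liver and gut share, differed by 0.17 and 0.32 and did not pass (0.493 and 0.312).

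Defining markers of intestinal epithelium, 20 genes including Sis, Alpi, Lct and Muc2, were mostly absent. Of the 20, 7 had 0 counts in every 2-month mutant, 6 in every tumour and 5 in every tumour-free piece, against 12 in 2-month controls and 10 in 9-month controls. Sis, sucrase-isomaltase, had 0 counts in all 19 libraries, which allows up to 0.0309 CPM in tumours and 0.0569 CPM in 9-month controls (3 counts over the group). The summed list ran from 126 to 262 CPM in 2-month mutants and from 96.8 to 139 CPM in 2-month controls. It ran from 57.5 to 128 CPM in tumours, from 96.1 to 125 CPM in tumour-free tissue and from 230 to 280 CPM in 9-month controls. Genes that liver also makes carried this sum: in 9-month controls Fabp2 averaged 186 CPM and Slc10a2 68.7 CPM. Only 4 of the 20 were tested, among them Fabp2, the gut fatty acid binding protein, which liver also makes and which fell at 2 and 9 months, with log2 differences of -1.86 and -3.23 (edgeR adjusted p = 0.000142 and 0.000112). Slc10a2, given with the carriers, also belongs to these 20 and rose at 2 months.

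Sums of other cell type markers moved with the groups. The 12 hepatocyte markers summed to 47220 to 66340 CPM in 2-month mutants against 130000 to 156300 CPM in controls, and to 50200 to 76980 CPM in tumours and 49750 to 51430 CPM in tumour-free tissue against 139100 to 146900 CPM in 9-month controls. The 14 bile duct markers summed to 334 to 815 CPM in 2-month mutants against 192 to 278 CPM in controls, and to 272 to 456 CPM in tumour-free tissue against 215 to 281 CPM in 9-month controls. Of 11 tested bile duct markers, 5 rose at 2 months and 4 in tumour-free tissue, where 22.3% and 18.1% of all genes were called higher. Among them Cldn7 rose by 5.36 and 5.88 on the log2 scale (edgeR adjusted p = 2.64e-06 and 0.00016), and Epcam, by 1.89 and 3.68 (0.00244 and 8.47e-06). Krt19 did not pass, at 2.03 ± 1.78 CPM in 2-month mutants and 1.51 ± 0.685 CPM in controls, and at 1.218 ± 0.315 CPM in tumour-free tissue and 2.01 ± 0.979 CPM in 9-month controls. Macrophage and myofibroblast sums ran from 619 to 1039 CPM and 407 to 758 CPM in 2-month mutants, against 345 to 666 CPM and 207 to 360 CPM in controls. The part of any of these cells in the members' levels was not tested.

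**Figure D5:**
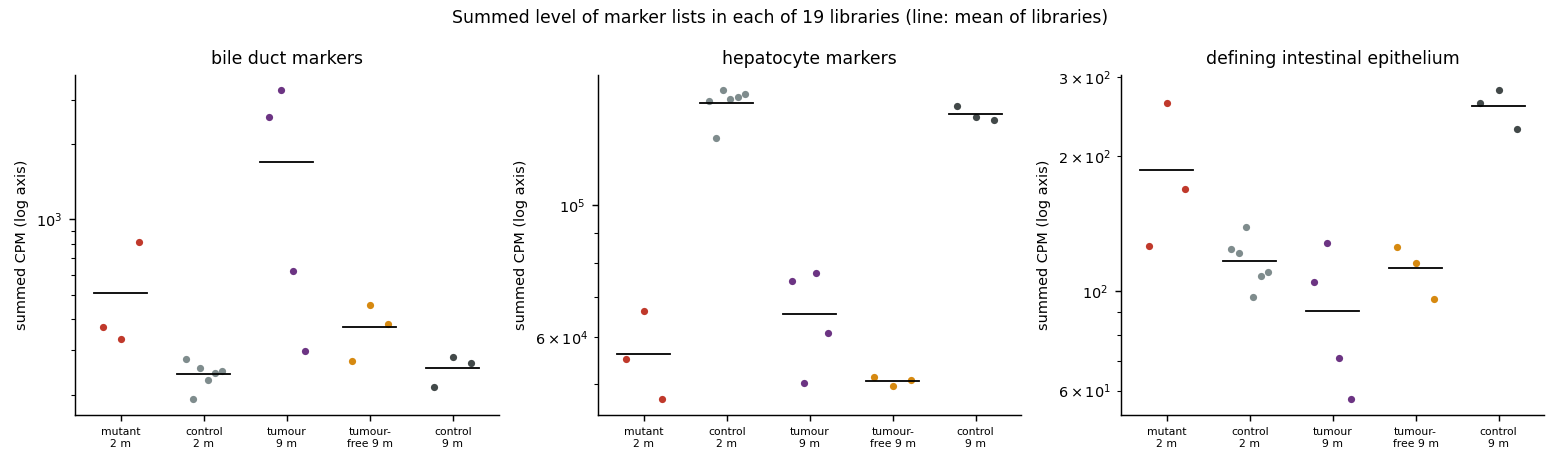
Summed CPM of bile duct, hepatocyte and defining intestinal markers in each of 19 libraries (log axes), with 1 point per library and a line at the mean of the libraries. The tumours of mutant 1 have 2561 and 3275 CPM in bile duct markers, hepatocyte sums are at most 76980 CPM in every mutant library and at least 130000 CPM in every control, and defining intestinal sums lie between 230 and 280 CPM in 9-month controls, a range that the second 2-month mutant, at 262 CPM, shares.

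Genes with profiles most like the mean of the members were ranked by Pearson r over 18 libraries, the tumours of mutant 1 being summed. The mutant and control difference that all these genes share drives r, so it is a description. The 8 highest protein coding genes were Slc6a19 (0.986), Oxct1 (0.983), St14 (0.983), Smtn (0.981), St6galnac4 (0.980), Myo7b (0.979), Smpdl3b (0.978) and Hist1h1d (0.977). Slc6a19 and Myo7b are brush border genes in their own right, Oxct1 is an enzyme of ketone body use, and St14 is matriptase, a membrane protease of epithelia. St14 averaged 88.5 CPM in 2-month mutants and 1.16 CPM in controls, and 161 CPM in tumour-free tissue and 1.54 CPM in 9-month controls. Against the mean of the other 9, Vil1 gave an r of 0.978, Pls1 0.973 and Cdhr2 0.970, Cdhr5 gave 0.527 and Lgals4 -0.906.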

How the data were processed

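Poly(A) RNA of 19 liver and tumour samples was sequenced from stranded libraries, per the labels' protocols. The authors deposited a table of raw counts, whole numbers for 55421 genes, 24684 of them without a count in any library. Build GRCm38 and the tools bedtools 2.27.1, RSEM, DESeq2 1.22.2 and STAR 2.6.1a are named, per the submitters' processing notes, with no roles or annotation release. As RSEM is listed, the counts may be rounded estimates. Of the gene identifiers, 54673 match GENCODE M21 with version and 55240 without.

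The members and the 16 other gene lists were chosen with earlier results of these data known. edgeR 4.0.16 (R 4.3.3) was run on the groups of each comparison alone: expression filter, TMM scaling, robust quasi-likelihood test, and Benjamini-Hochberg adjustment over all genes tested, with a threshold of 0.05. The interaction used 4 groups in 1 fit. The tests were checked on simulated data. The 19 libraries stand for 15 animals. Levels are CPM after TMM scaling over all libraries. Depth, 14.3 to 22.1 M (mega) counts, limits low values: a floor of 3 counts over a group was used for folds against 0, and exact binomial 95% intervals for 1 to 3 counts. Both cover counting error only. The labels do not say more on replicates than that mice were separate.

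All members are named. From each other list, the text takes up to 4 genes with the smallest adjusted p among those passing and up to 2 others with the highest mean, or a whole list of at most 12 genes, and a gene so named may appear in every comparison; the values of 1 gene that the rule takes are not reported here. Tumour and tumour-free libraries of the same number come from the same animal, per the labels, and their deviations from group means correlated at 0.225, 0.306 and 0.0365. Alternatives were DESeq2 1.42.0, RLE factors, library size alone, no filter, 1 fit over all groups, each animal left out, the 9-month animals numbered 1 left out, replicate blocks, and separate tumours.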

Additional observations from a re-analysis of the deposited data

Results flagged for a closer look

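Among 19 sets of 4 to 6 libraries of a member checked for 1 library far from the rest, 4 stood out. Chance flags about 1 in 20 such sets, but that rate does not hold for Krt20 and Slc15a1, where the other 5 controls had 0 counts and any count stands out. All 4 are in 2-month controls and all are the highest library. They are Cdhr5 in control 3 (115 CPM), Krt20 in control 5 (0.0790 CPM, its 1 count), Slc15a1 in control 6 (0.150 CPM, its 2 counts) and Vil1 in control 2 (0.564 CPM, 8 counts). For Cdhr5, control 3 is the control that lies above mutant 3. Without control 5 the fitted 2-month log2 difference of Krt20 was 10.24, against 8.91 with it, and its interaction value was -4.53, against -3.07. Without control 6 those of Slc15a1 were 10.78, against 8.77, and -2.67, against -0.52. Without control 2 the 2-month difference of Vil1 was 7.63.

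The mutant effect changed with time, by the interaction term in edgeR, in 7 named genes of the other lists. It grew for Vill (log2 difference 2.21), Eps8l2 (1.36), Espn (2.65) and Cdh1 (3.26). It shrank for Treh (-2.25), Slc10a2 (-2.41) and Abcb1a (-2.43). For Treh, Slc10a2 and Abcb1a the 9-month controls averaged 13.4, 68.7 and 9.39 CPM, against 1.13, 22.5 and 2.87 CPM in the 2-month controls. For Cdh1 the order of the controls was the other way, at 5.41 and 60.0 CPM.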

How the results depend on the processing

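The direction of every member against its controls held under each alternative that gave a value, except for Cdhr5 in tumours, which turned in 4 of 377 values: its 0.02 became -0.40 with the 9-month animals numbered 1 left out, -0.081 with the replicate block, and -0.47 to -0.12 where leaving out 1 animal turned it. Between tumours and tumour-free tissue, the 2 genes called became 442 with DESeq2, 47 without the filter, 380 in 1 fit over all groups, 0 without the animals numbered 1 and 1 with the animal as a block (0 to 63 leaving out 1 animal; 63 without the tumours of mutant 1). Brush border genes called there numbered 3 higher and 3 lower with DESeq2, 1 and 2 in the single fit, and 1 lower without the filter (0 to 1 higher and 0 to 2 lower leaving out 1 animal), and members 0 to 1. The interaction called 523 genes with DESeq2 and 54 in the single fit (110 to 293 leaving out 1 animal). Its brush border genes lower numbered 1 with library size alone, 1 without the filter and 0 in the single fit (1 to 3). The 2-month count fell to 3245 with the replicate block. In tumours against controls, genes called numbered 5482 with library size alone, 6612 in the single fit and 1743 without the animals numbered 1 (1419 to 3566). Brush border genes higher numbered 29 and 12 with library size alone and without those animals (8 to 22). Brush border genes lower numbered 7 with DESeq2, 2 with library size alone, 2 without the filter, 7 in the single fit, 2 without those animals, 2 with the replicate block and 7 with separate tumours (1 to 5). In tumours against tumour-free tissue these directions turned: Vil1 to -0.022 with the animal as a block (-0.32 to 0.95 leaving out 1 animal), Pls1 to 0.059 (-0.49 to 0.10) and Cdhr2 to 0.14 (-0.672 to 0.085) without the animals numbered 1, and Krt20 to -1.10 without them and -0.32 with the block (-0.81 to 0.51). In the interaction Cdhr2 turned to 0.03 with library size alone and 0.21 without the animals numbered 1 (-0.554 to 0.214 leaving out 1 animal), and Slc15a1 in 2 of the fits without 1 animal (range -2.673 to 1.342). Library size alone moved the median log2 difference of all genes by 0.29 at 2 months, 0.43 in tumour-free tissue and 0.47 in tumours, and the splits of higher to lower calls to 5445 and 1562, 5706 and 1178, and 4664 and 818. Same-numbered mutants and controls share only a number: their deviations correlated at -0.22 to 0.24 at 2 months, at 0.305, 0.00801 and -0.0203 for tumour-free tissue and at 0.11, -0.0259 and -0.0311 for tumours. The cause of these shifts was not tested. Few animals and few control counts limit the precision.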

Other observations

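A 9-month control held a different set of gut genes. Control 3 had 16 counts of Slc26a3, the chloride exchanger of the colon, 11 of Slc9a3, the sodium-proton exchanger of the brush border, and 14 of Muc3. No other library had more than 2 counts of any of these. The same control had 0 counts of Mep1a, Cdh17 and Krt20, 1 of Slc15a1, 2 of Cdhr2, 7 of Muc13, 15 of Vil1 and 24 of Pls1. Its Cdhr5 and Lgals4 levels were 84.8 and 32.1 CPM. Among the 9-month controls it was the highest only in Slc15a1, by that 1 count. At such low counts a small rise in the near-silent members could be missed.

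Some other brush border genes divided the tumours in other ways than Mep1a. Ggt1 stood at 0.696 and 1.27 CPM in the tumours of mutant 1, 10.6 CPM in that of mutant 2 and 48.7 CPM in that of mutant 3. Slc1a1 stood at 7.18 and 5.86 CPM in mutant 1, 27.1 CPM in mutant 2 and 116 CPM in mutant 3. Both were thus low where Mep1a was high. Tmigd1 was at 15.7 CPM in the tumour of mutant 2 and between 0.394 and 1.65 CPM in the other tumours. With 3 animals these patterns have no test.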
